A study of Mus musculus with 6 samples.

Results

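The 10 genes followed here are parts of innate sensing in mouse liver: the toll-like receptor genes Tlr2, Tlr3 and Tlr4, the co-receptor gene Cd14, the adaptor gene Myd88, the inflammasome genes Nlrp3, Pycard and Casp1, and the cytokine genes Il1b and Il18. They were chosen by gene name, and all 10 were found among the 54532 genes of the deposited table. The series holds 6 libraries of liver RNA. In 3 libraries the mice were hepatocyte-specific G3bp1 knockouts (HKO), and in the other 3 they were floxed litter controls (Flox). All mice, controls included, were 6 weeks old when a high-fat diet (HFD) began and received it for 12 weeks. The study asked how G3BP1, an RNA-binding protein of stress granules, affects non-alcoholic steatohepatitis (NASH), and its single comparison is HKO against Flox. The labels do not name the Cre line, and cells other than hepatocytes keep the gene in a deletion of this kind. They also do not say that every library is a separate mouse, so the p-values describe the spread of these libraries, part of which may be technical.

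Toll-like receptors recognise microbial and damage-derived molecules, and most of them signal through the adaptor MyD88 to the transcription factor NF-κB. TLR3, a receptor of double-stranded RNA, uses the adaptor TRIF instead, and TLR4 binds lipopolysaccharide with the help of CD14, MD-2 and the lipopolysaccharide-binding protein LBP. In the inflammasome the sensor NLRP3 joins the adaptor ASC, encoded by Pycard, and the protease caspase-1, which cuts the precursors of interleukin-1β and interleukin-18 and cleaves gasdermin D into its pore-forming part. In liver the resident macrophages, called Kupffer cells, are a main site of both systems.

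No member of the group differed between HKO and Flox at an adjusted p under 0.05 in limma. Casp1 and Tlr4 stood higher in every HKO library than in any Flox library, and Tlr3 stood lower in every HKO library. Cd14 had a 57.4% higher mean in HKO, with 1 HKO library inside the Flox range. Myd88 and Il18, the most abundant members, had HKO means that differed from Flox by -2.60% and -3.49%.

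FPKM is a read count divided by gene length and a library size. Here that size was 0.934 (Flox 2) to 1.06 (HKO 1) times the reads recovered. It was proportional to size factors, the median ratio of a library's reads to each gene's average, in all 6 libraries. Between 15804115 and 17954066 reads per library could be recovered from the FPKM values, and no pair of libraries was alike within sampling noise. G3bp1, the targeted gene, had 8.46, 8.46 and 9.10 FPKM in Flox 1, 2 and 3 and 4.66, 4.27 and 4.44 FPKM in HKO 1, 2 and 3, and its HKO libraries lay well below its Flox libraries. Its HKO mean differed from Flox by -48.6%, with an adjusted p of 0.11 in limma and 0.037 with limma's voom on recovered reads. The hepatocyte marker Alb stood between 25430 and 33879 FPKM, so the tissue matched its label.

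Promoter sequence was at hand for 8 of the 10 members, in 9 windows of 250 bases before a RefSeq start site (GRCm38.p6). Shown are 3 windows that hold no annotated GENCODE exon. They stand before the sensor gene Nlrp3 (the downstream of its 2 start sites), the protease gene Casp1 and the substrate gene Il1b, which follow each other in the same cascade. The windows lie at chr11:59542436-59542685 on the plus strand, chr9:5298267-5298516 on the plus strand and chr2:129371140-129371389 on the minus strand. Capitals mark GAGGAA, the core letters of a PU.1 site, or its reverse complement. PU.1 is a transcription factor of myeloid cells.
Nlrp3: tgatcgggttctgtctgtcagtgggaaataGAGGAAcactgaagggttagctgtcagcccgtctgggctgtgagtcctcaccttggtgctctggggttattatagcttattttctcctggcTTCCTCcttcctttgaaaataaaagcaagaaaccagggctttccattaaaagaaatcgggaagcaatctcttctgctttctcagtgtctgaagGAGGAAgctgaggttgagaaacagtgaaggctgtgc
Casp1: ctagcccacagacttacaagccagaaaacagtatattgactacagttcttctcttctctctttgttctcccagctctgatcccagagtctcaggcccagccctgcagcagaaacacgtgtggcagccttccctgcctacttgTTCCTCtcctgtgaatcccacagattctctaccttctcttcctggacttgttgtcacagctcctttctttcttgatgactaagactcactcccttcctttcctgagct
Il1b: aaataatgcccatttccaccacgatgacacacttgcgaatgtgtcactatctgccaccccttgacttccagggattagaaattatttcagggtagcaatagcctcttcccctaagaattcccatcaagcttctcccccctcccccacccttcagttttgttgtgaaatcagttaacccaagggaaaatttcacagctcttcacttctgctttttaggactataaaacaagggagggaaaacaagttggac
The Nlrp3 window holds 3 matches, the Casp1 window 1 and the Il1b window 0. Of all 32851 promoter windows of the same length, 23.3% hold this motif. The κB consensus was found in 7.25% of all windows, TGANTCA (AP-1) in 6.75% and an interferon response motif in 2.98%, each on both strands. None of these 3 motifs is in the windows shown, so no match there overlaps another. Of the windows not shown, those of Tlr2, Tlr3 and the upstream Nlrp3 start hold κB matches. The Pycard window holds 1 PU.1 core match, and those of Tlr2, Tlr3, Il18, Myd88 and the upstream Nlrp3 start hold 0. The Myd88 window holds an interferon response match. A match of letters describes the window and is not a site.

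The members spanned a wide range of levels in FPKM. Il18 was highest in all 6 libraries and Myd88 came next in all 6, and their ranges did not overlap with each other or with the gene after them. Cd14, Il1b, Tlr3, Casp1 and Tlr2 followed at means over 6 libraries of 2.16, 1.69, 1.63, 1.22 and 1.07 FPKM, and each of these overlapped in range with the next. Pycard, Tlr4 and Nlrp3 were lowest, at 0.307, 0.287 and 0.243 FPKM, and overlapped among themselves. These 3 did not reach 0.5 FPKM in at least 3 libraries, the filter on low values, while the other 7 members did. They rest on 101 to 165 reads each over the 6 libraries.

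**Figure D1:**
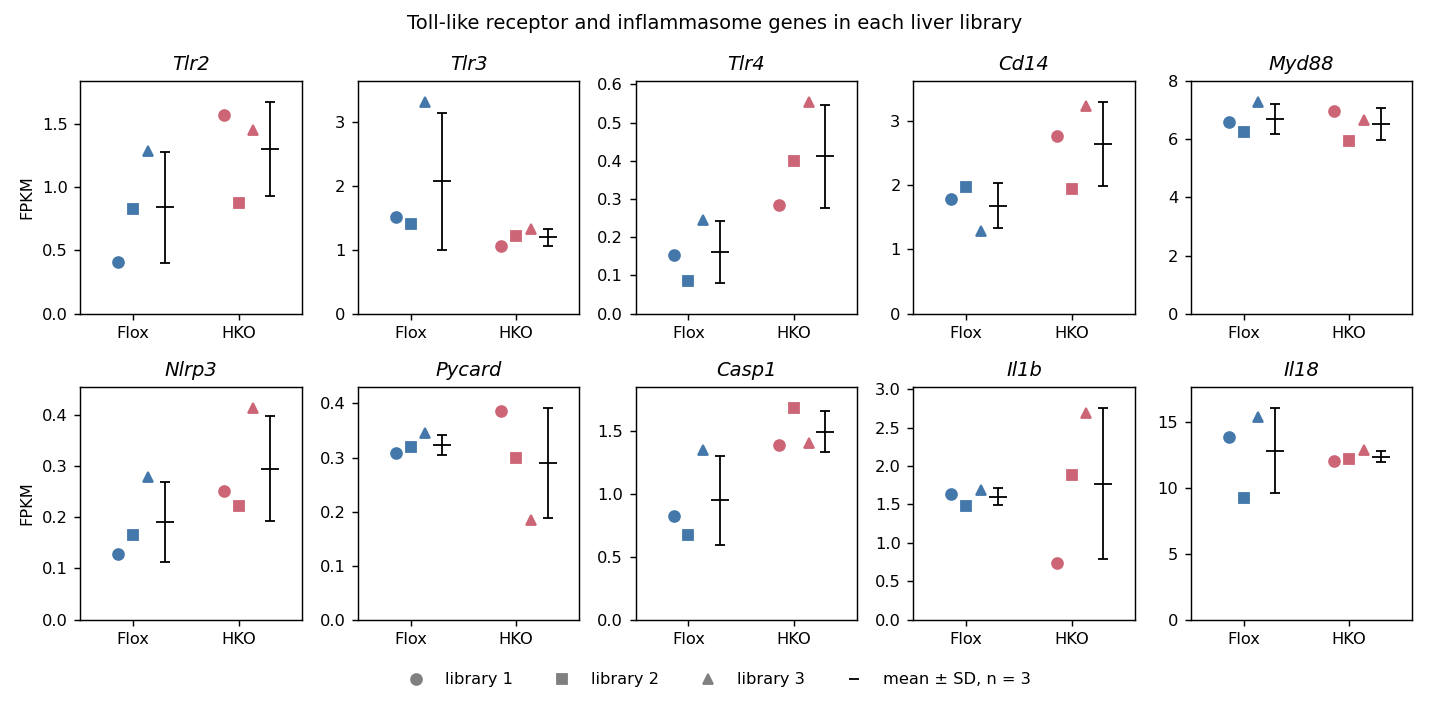
FPKM of each of the 10 members (vertical axis, linear, from 0) in the 3 Flox and 3 HKO libraries, with 1 symbol shape for each library number and the mean ± SD beside them. HKO points lie above all Flox points for Tlr4 and Casp1 and below all of them for Tlr3.

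Among the receptors, Tlr4, the lipopolysaccharide receptor gene, had the largest ratio of group means (ENSMUSG00000039005, chromosome 4, 66827584 to 66930284, plus strand, GRCm38 as for all coordinates here). It had 0.152, 0.0848 and 0.246 FPKM in Flox 1, 2 and 3 and 0.284, 0.399 and 0.553 FPKM in HKO 1, 2 and 3. All HKO libraries lay above all Flox libraries, with Flox 3 and HKO 1 close together. The values rest on 13, 7 and 23 reads (Flox) and 28, 37 and 57 reads (HKO). The exact Poisson 95% interval was 14.6 to 34.5 for the 23 reads of Flox 3 and 18.6 to 40.5 for the 28 reads of HKO 1, so counting error alone covers the gap between these libraries. Mean levels were 0.161 ± 0.0811 against 0.412 ± 0.135 FPKM in Flox and HKO (SD, n = 3 each), a ratio of 2.56. In limma without the filter the log2 fold change was 0.28 (SE 0.102, 95% interval 0.035 to 0.53) with an adjusted p of 0.777. The exact permutation p was 0.1, the smallest that 3 against 3 libraries allow. Fold changes here are differences of log2(FPKM + 1), so that of a gene this low comes out too small, and with a pseudocount of 0.1 FPKM the value was 0.99. Those of Tlr2, Casp1, Cd14 and Tlr3 are made smaller too. With 0.1 FPKM they were 0.65, 0.65, 0.62 and -0.64, against 0.34, 0.37, 0.44 and -0.43 with 1 FPKM.

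Kupffer cells are a known source of Tlr4 and Cd14 transcripts. The summed level of 12 Kupffer cell markers was 151, 173 and 278 FPKM in Flox 1, 2 and 3 and 370, 227 and 281 FPKM in HKO 1, 2 and 3. All 12 had a higher mean in HKO, 4 of them without overlap (Adgre1, Vsig4, Csf1r and Cd163), against 6.39% of all genes with a mean of at least 5 reads, and 0 passed (smallest adjusted p 0.58 in limma). In bulk liver, more cells of a type and more RNA per cell cannot be told apart. The part of Kupffer cells in the Tlr4, Cd14, Casp1 and Tlr2 values was not tested.

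Cd14, which hands lipopolysaccharide to TLR4 (ENSMUSG00000051439, chromosome 18, 36725074 to 36726736, minus strand), had 1.78, 1.97 and 1.29 FPKM in Flox 1, 2 and 3 and 2.76, 1.94 and 3.23 FPKM in HKO 1, 2 and 3. HKO 1 and HKO 3 lay above every Flox library and HKO 2 lay just under Flox 2. Mean levels were 1.68 ± 0.353 against 2.64 ± 0.649 FPKM (SD, n = 3 each), with a log2 fold change of 0.44 (SE 0.165, 95% interval 0.048 to 0.82) and an adjusted p of 0.648 in limma. Scaled to TPM or by assigned reads, all HKO libraries lay above all Flox libraries. These scalings also moved the median log2 fold change of all genes tested upward, to 0.147 and 0.051.

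The other parts of lipopolysaccharide recognition did not pass the test. Pairs of means set against each other give Flox first and HKO after it, as mean ± SD with n = 3. Ly96, which encodes MD-2, averaged 3.46 ± 1.05 against 2.76 ± 0.799 FPKM (adjusted p = 0.748 in limma). Lbp, which encodes a plasma protein made by hepatocytes, averaged 20.4 ± 2.36 against 23.5 ± 7.78 FPKM (adjusted p = 0.84 in limma), and HKO 1 alone lay above its Flox range, at 32.3 FPKM.

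Tlr2, a receptor of bacterial lipoproteins (ENSMUSG00000027995, chromosome 3, 83836272 to 83841767, minus strand), had 0.410, 0.827 and 1.28 FPKM in Flox 1, 2 and 3 and 1.57, 0.875 and 1.45 FPKM in HKO 1, 2 and 3. HKO 1 and HKO 3 were the highest libraries, and HKO 2 lay between Flox 2 and Flox 3. The limma fit gave a log2 fold change of 0.34 (SE 0.203, 95% interval -0.14 to 0.81) and an adjusted p of 0.688. Its partners Tlr1 and Tlr6 were lower in level. Tlr1 averaged 0.286 ± 0.0346 against 0.356 ± 0.0162 FPKM, with every HKO library above every Flox library, and Tlr6 averaged 0.181 ± 0.0528 against 0.173 ± 0.0509 FPKM, with overlap.

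Tlr3, the receptor gene for double-stranded RNA, had the opposite direction (ENSMUSG00000031639, chromosome 8, 45395665 to 45411080, minus strand). It had 1.51, 1.40 and 3.30 FPKM in Flox 1, 2 and 3 and 1.05, 1.22 and 1.32 FPKM in HKO 1, 2 and 3. Each HKO library lay below each Flox library, but Flox 3 stood far above the other Flox libraries. Mean levels were 2.07 ± 1.07 against 1.20 ± 0.134 FPKM (SD, n = 3 each), with a log2 fold change of -0.43 (SE 0.223, 95% interval -0.96 to 0.095) and an adjusted p of 0.68 in limma. Without Flox 3 the log2 fold change was -0.16, and scaled to TPM or by assigned reads the groups overlapped. These scalings also moved the median log2 fold change of all genes tested upward. Irf7, an interferon-induced transcription factor picked after its values were seen, was also highest in Flox 3. It had 7.55, 12.0 and 63.6 FPKM in Flox 1, 2 and 3 and 24.6, 8.82 and 7.78 FPKM in HKO 1, 2 and 3, and its part in the Tlr3 values was not tested. Exons of the antisense gene Gm45542 cover 7.32% of the Tlr3 exons, and the library kit does not mark strand.

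The remaining toll-like receptor genes did not pass either. Tlr5, the flagellin receptor, averaged 2.02 ± 0.389 against 1.58 ± 0.511 FPKM, and Tlr12, a receptor of parasite profilin, averaged 4.31 ± 1.57 against 3.15 ± 1.51 FPKM. Tlr12 had the highest mean level of the toll-like receptor genes in these livers. Tlr7 and Tlr8, receptors of single-stranded RNA, averaged 0.330 ± 0.323 against 0.433 ± 0.0974 FPKM and 0.156 ± 0.0950 against 0.349 ± 0.101 FPKM. Tlr13, which senses bacterial ribosomal RNA, averaged 0.300 ± 0.0400 against 0.424 ± 0.0819 FPKM, with every HKO library above every Flox library. The DNA receptor gene Tlr9 had 0 to 16 reads per library and Tlr11 had 3 to 12. A library with 0 reads still allows up to 3. Tlr9 had 1, 0 and 16 reads in Flox 1, 2 and 3 and 8, 1 and 7 reads in HKO 1, 2 and 3. Its Flox libraries spanned all HKO values, and so few reads limit what can be detected between the groups. Cd180, a toll-like receptor homologue of B cells and myeloid cells, averaged 0.586 ± 0.405 against 0.717 ± 0.173 FPKM. Unc93b1, which carries the nucleic acid receptors to endosomes, averaged 12.5 ± 3.12 against 13.6 ± 1.42 FPKM.

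Myd88, the adaptor gene (ENSMUSG00000032508, chromosome 9, 119335934 to 119341411, minus strand), had 6.59, 6.25 and 7.28 FPKM in Flox 1, 2 and 3 and 6.98, 5.93 and 6.68 FPKM in HKO 1, 2 and 3. The groups overlapped throughout. The limma fit gave a log2 fold change of -0.033 (SE 0.103, 95% interval -0.27 to 0.21) and an adjusted p of 0.93. Its coefficient of variation between libraries, set beside what counting alone gives, was 7.8% against 6.07% in Flox and 8.28% against 5.8% in HKO. Exons of Acaa1a on the other strand cover 11.3% of its exons.

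Other signalling genes did not pass. Ticam1, which encodes TRIF, averaged 5.41 ± 0.418 against 5.79 ± 0.413 FPKM. Irak4, the kinase that binds MyD88, averaged 1.98 ± 0.0242 against 1.78 ± 0.108 FPKM, with every HKO library below every Flox library (adjusted p = 0.748 in limma). The ubiquitin ligase gene Traf6 averaged 2.31 ± 0.570 against 2.45 ± 0.269 FPKM. Among the inhibitors, Nfkbia, itself an NF-κB target, averaged 18.2 ± 0.677 against 17.9 ± 3.86 FPKM. Irak3, which encodes an inhibitory kinase of myeloid cells, averaged 0.178 ± 0.0443 against 0.352 ± 0.0799 FPKM, with every HKO library above every Flox library, on 7 to 28 reads.

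Casp1, the inflammasome protease gene (ENSMUSG00000025888, chromosome 9, 5298517 to 5307265, plus strand), had 0.826, 0.675 and 1.35 FPKM in Flox 1, 2 and 3 and 1.39, 1.68 and 1.41 FPKM in HKO 1, 2 and 3. All HKO libraries lay above all Flox libraries. Flox 3 was almost level with HKO 1, while Flox 1 and Flox 2 stood well below. These values rest on 19, 15 and 34 reads (Flox) and 37, 42 and 39 reads (HKO). Mean levels were 0.951 ± 0.355 against 1.49 ± 0.163 FPKM (SD, n = 3 each), or 57.1% higher in HKO. The limma fit gave a log2 fold change of 0.37 (SE 0.144, 95% interval 0.029 to 0.71) and an adjusted p of 0.648, and the exact permutation p was 0.1.

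The sensor and the adaptor of the inflammasome rest on few reads. Nlrp3, the sensor gene (ENSMUSG00000032691, chromosome 11, 59541568 to 59566956, plus strand), had 0.128, 0.166 and 0.279 FPKM in Flox 1, 2 and 3 and 0.250, 0.222 and 0.412 FPKM in HKO 1, 2 and 3, on 8 to 31 reads. Flox 3 lay above HKO 1 and HKO 2, so the groups overlapped. Pycard, the ASC gene (ENSMUSG00000030793, chromosome 7, 127989708 to 127993867, minus strand), had 0.308, 0.319 and 0.344 FPKM in Flox 1, 2 and 3 and 0.386, 0.300 and 0.185 FPKM in HKO 1, 2 and 3, on 13 to 26 reads. Its Flox libraries were close together and the HKO libraries spread to both sides of them. In limma without the filter the log2 fold change of Nlrp3 was 0.12 (95% interval -0.10 to 0.34, adjusted p = 0.777). That of Pycard was -0.040 (95% interval -0.25 to 0.17, adjusted p = 0.893 in limma). Exons of Gm45205 on the other strand cover 12.8% of the Pycard exons.

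Of the other sensor genes, Nlrp6, known from intestinal epithelium, was the most abundant by mean level, at 25.4 ± 1.07 against 29.5 ± 2.50 FPKM. Every HKO library stood above every Flox library for it, with a log2 fold change of 0.21 (SE 0.105, 95% interval -0.042 to 0.45) and an adjusted p of 0.678 in limma. Naip2, Naip5 and Naip6 encode receptors of bacterial flagellin and secretion system proteins. They averaged 1.35 ± 0.662 against 1.36 ± 0.107 FPKM, 0.354 ± 0.133 against 0.385 ± 0.0141 FPKM and 0.169 ± 0.0575 against 0.201 ± 0.0244 FPKM. They are close relatives, and since the counting rule is unknown here, reads shared among them make these values uncertain. Their partner Nlrc4 averaged 0.142 ± 0.0786 against 0.208 ± 0.0258 FPKM and the DNA sensor gene Aim2 averaged 0.293 ± 0.108 against 0.329 ± 0.205 FPKM.

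Gsdmd, which encodes the pore protein gasdermin D, was lower in every HKO library, opposite to Casp1. It had 15.2, 14.7 and 15.9 FPKM in Flox 1, 2 and 3 and 12.9, 11.5 and 13.9 FPKM in HKO 1, 2 and 3, with a log2 fold change of -0.24 (SE 0.103, 95% interval -0.49 to -0.00062) and an adjusted p of 0.651 in limma. Casp4, which encodes the protease of the non-canonical inflammasome, averaged 0.244 ± 0.191 against 0.385 ± 0.0955 FPKM. The NLRP3-binding kinase gene Nek7 averaged 7.37 ± 0.313 against 7.65 ± 0.709 FPKM. Txnip, a glucose-responsive redox regulator reported to bind NLRP3, averaged 70.6 ± 27.4 against 50.3 ± 14.1 FPKM, with Flox 3 highest and HKO 1 lowest. Exons of the antisense gene Gm15441 cover 19.4% of the Txnip exons.

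Il1b, an NF-κB target that encodes interleukin-1β (ENSMUSG00000027398, chromosome 2, 129364570 to 129371139, minus strand), had overlapping groups with unequal spread. It had 1.64, 1.48 and 1.68 FPKM in Flox 1, 2 and 3 and 0.739, 1.89 and 2.69 FPKM in HKO 1, 2 and 3. HKO 1 was the lowest and HKO 3 the highest of all 6 libraries. Set beside counting alone, its coefficient of variation was 6.59% against 14.4% in Flox and 55.3% against 12.9% in HKO. Whether the spread differed between the groups was not tested. The limma fit gave a log2 fold change of 0.024 (SE 0.258, 95% interval -0.59 to 0.64) and an adjusted p of 0.984. Il1a, a neighbouring cytokine gene of the same family, was also lowest in HKO 1 and highest in HKO 3, with 1.12, 1.16 and 1.57 FPKM in Flox 1, 2 and 3 and 0.714, 1.58 and 1.94 FPKM in HKO 1, 2 and 3. Exons of Gm14023 on the other strand cover 11.2% of the Il1a exons.

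Il18, which encodes interleukin-18 (ENSMUSG00000039217, chromosome 9, 50554827 to 50581840, plus strand), had 13.9, 9.21 and 15.4 FPKM in Flox 1, 2 and 3 and 12.0, 12.2 and 12.9 FPKM in HKO 1, 2 and 3. Here the HKO libraries were close together inside the Flox range. The limma fit gave a log2 fold change of -0.019 (SE 0.177, 95% interval -0.44 to 0.40) and an adjusted p of 0.982.

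Cytokine antagonists and receptors did not pass. Il1rn, the antagonist of the interleukin-1 receptor, averaged 0.376 ± 0.0338 against 0.558 ± 0.0898 FPKM, with every HKO library above every Flox library. The receptor gene Il1r1 had 4.38, 4.33 and 4.10 FPKM in Flox 1, 2 and 3 and 4.54, 6.38 and 6.03 FPKM in HKO 1, 2 and 3, again with every HKO library above every Flox library, and a log2 fold change of 0.32 (SE 0.127, 95% interval 0.026 to 0.62) and an adjusted p of 0.648 in limma. Il18bp, which neutralises interleukin-18, averaged 4.28 ± 1.47 against 5.65 ± 2.58 FPKM, and the alarmin gene Il33 averaged 0.776 ± 0.308 against 0.544 ± 0.231 FPKM. The inflammatory cytokine genes Tnf and Il6 had 0 to 7 and 0 to 2 reads per library, too few to detect a difference.

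**Figure D2:**
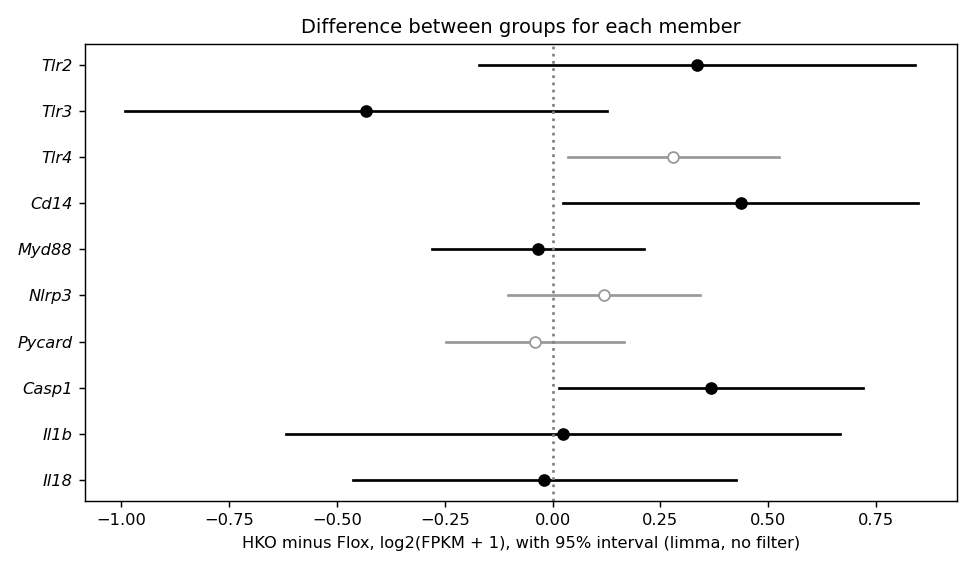
HKO minus Flox for each member (horizontal axis, difference of log2(FPKM + 1)) with 95% intervals from limma without a filter, open points for members below the filter. The intervals of Tlr4, Cd14 and Casp1 lie above 0 before adjustment, and none of the 10 members passed after it.

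Counted over the group, 0 of 10 members passed at an adjusted p under 0.05. Limma with the filter called 0 of 7, against 0.00843% of the 11856 genes tested, and without it 0 of 10, against 0% of 23874 genes. Voom on recovered reads called 0 of 7, against 0.0253%. At an unadjusted p under 0.05 limma without the filter took 3 of 10 members (Tlr4, Cd14 and Casp1, all higher in HKO), against 5.02% of genes in either direction and 2.29% on the higher side. With the filter it took 2 of 7 (Cd14 and Casp1), against 7.62% and 3.08%, and voom took 1 of 7 (Cd14), against 7.75% and 3.31%. Of the 23874 genes only 14481 had a mean of at least 5 reads per library, as all 10 members had. The shares without the filter thus rest partly on genes with fewer reads than the members.

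Groups did not overlap for 3 of 10 members, 2 higher and 1 lower. Of the 14481 genes with a mean of at least 5 reads per library, 13% did not overlap, 6.39% higher and 6.58% lower, and among those below the filter, as Tlr4 is, 7.53% were higher. The mean FPKM was higher in HKO for 6 members and lower for 4, and of these 4, Myd88 and Il18 had a log2 fold change above 0 when scaled to TPM or by assigned reads. These scalings moved the median of all genes tested to 0.147 (TPM) and 0.051 (assigned reads). Relative to that median, Myd88 stood at -0.015 and -0.017 and Il18 at 0.0070 and 0.0013. The median log2 fold change was 0.072 over the 10 members in limma without the filter, and 0.002 over those 14481 genes.

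Of 77 further genes of the pathway, 49 passed the filter and 0 passed the test in either direction, in limma as in voom. At an unadjusted p under 0.05 there were 4 of 49 (8.16%) in limma, close to the 7.62% of all genes. Every HKO library lay above every Flox library for 12 of the 77 genes and below for 2, Irak4 and Gsdmd. The 12 on the higher side were 2 of 13 receptors and co-receptors, 4 of 27 adaptors, kinases and transcription factors, 2 of 6 inhibitors, 2 of 20 inflammasome sensors and executors and 2 of 11 cytokines and their receptors. Among the 69 genes with a mean of at least 5 reads, 10 were higher and 2 lower without overlap, together 17.4%. Of all such genes 13% did not overlap, 6.39% higher and 6.58% lower. Left out of these 10 are Ticam2, on 0 to 4 reads per library, and Mefv, on 2 to 8.

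**Figure D3:**
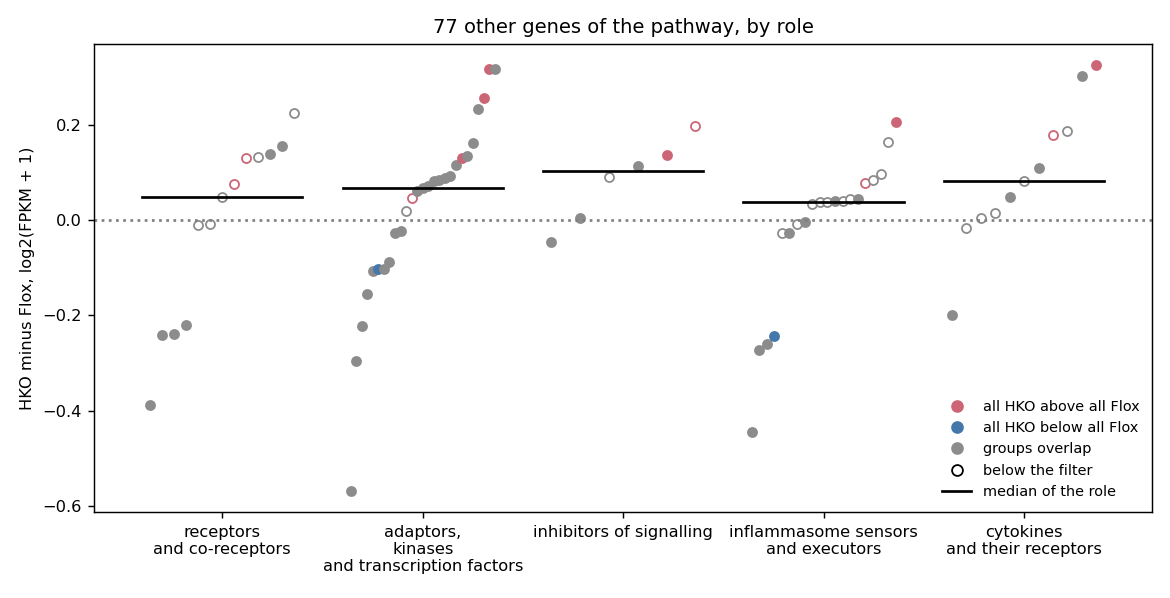
HKO minus Flox (vertical axis, difference of log2(FPKM + 1)) for 77 further genes of the pathway, 1 point each, grouped by role with the median as a line. The medians by role lie between 0.037 and 0.10, against 0.002 over the 14481 genes with a mean of at least 5 reads.

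The libraries within a group were not alike for these genes. Flox 3 was the highest Flox library for 9 of the 10 members, all but Cd14. HKO 3 was the highest HKO library for 6 members, and HKO 1 was the lowest for 5.

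Markers of other immune cells were counted in the same way, and 0 of them passed in limma. The 10 markers of monocytes and recruited macrophages summed to 40.5 to 60.8 FPKM (Flox) and 52.7 to 70.2 FPKM (HKO), most of it Lyz2. Of these, 7 had a higher mean in HKO, and 2 did so without overlap, Lyz2 (38.9 ± 5.56 against 52.1 ± 8.36 FPKM) and Clec7a (1.54 ± 0.250 against 2.77 ± 0.775 FPKM). The 10 neutrophil markers summed to 2.46 to 6.40 FPKM (Flox) and 2.64 to 4.16 FPKM (HKO), and 3 had a higher mean in HKO, with Ly6g and Camp at 0 in every library. Sums were 1.80 to 2.64 FPKM (Flox) and 1.67 to 2.19 FPKM (HKO) for 8 dendritic cell markers, with 3 higher in HKO. They were 1.97 to 3.17 FPKM (Flox) and 2.73 to 3.83 FPKM (HKO) for 8 markers of T and natural killer cells and 3.94 to 6.71 FPKM (Flox) and 4.10 to 8.22 FPKM (HKO) for 5 B cell markers, each list with all its means higher in HKO, and Cd79b of the B cell list without overlap. Some rest on few reads per library, such as Ncr1 (1 to 8) and Klrb1c (1 to 18). Of the 14481 genes with a mean of at least 5 reads, 6.39% were higher in HKO without overlap. A log2 fold change above 0 was found for 7335 of them.

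**Figure D4:**
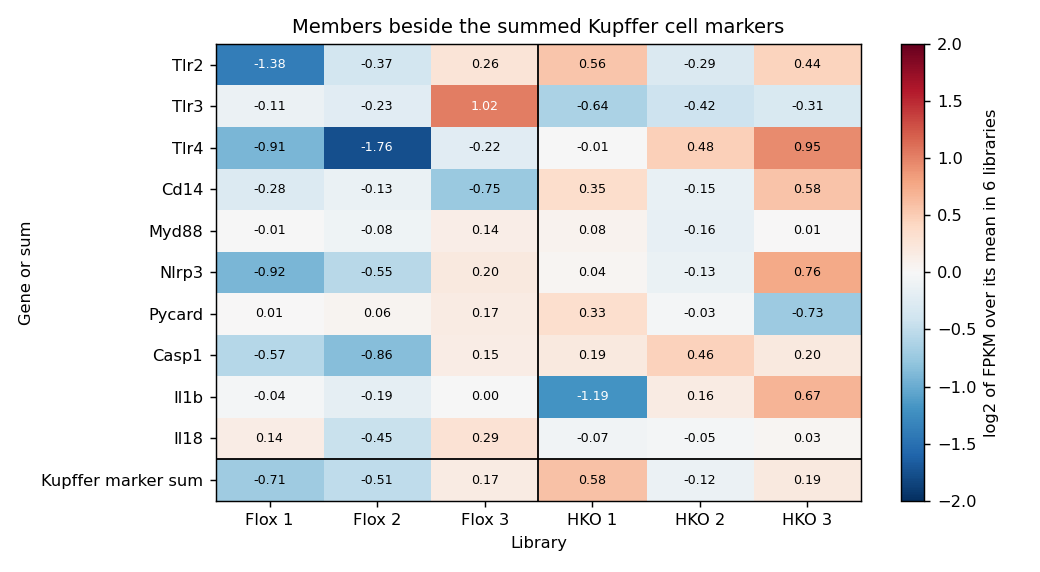
Level of each member and of the summed Kupffer cell markers in each library, as log2 of the FPKM over its own mean in the 6 libraries (colour and printed number). Tlr4, Cd14, Nlrp3 and Il1b are highest in HKO 3, Tlr3 stands out in Flox 3, and the marker sum is lowest in Flox 1 and Flox 2.

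For each of the 7 members above the filter, the tested genes with the most similar profile over the 6 libraries were sought by Pearson correlation among 11855 genes. With 6 points from shared libraries and this many genes, high values arise easily, and between 32 and 414 genes exceeded 0.9 per member. The closest among the receptors were Pde12 and Lgmn for Tlr2 (r = 0.989 and 0.985), Tor3a and Cd63-ps for Tlr3 (r = 0.997 and 0.992) and 2510009E07Rik and Spats2 for Cd14 (r = 0.990 and 0.976). They were Tef and Fxyd5 for Myd88 (r = 0.994 and 0.988), and Emp2 was closest to Casp1 (r = 0.996). Among the cytokines they were Echdc1 and AU021092 for Il1b (r = 0.995 and 0.994) and Scaf4 and Gm49338 for Il18 (r = 0.991 and 0.988). No member was among the closest genes of another.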

How the data were processed

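Liver RNA of 6 libraries was prepared with the NEBNext Ultra kit, per the labels' protocols. The authors deposited 1 table of FPKM per gene and library with gene lengths. GRCm38 and mm10 appear as builds in the submitters' processing notes. Aligner, counting tool and annotation: not given in the sources used here. FPKM times length was a whole multiple of 1 step in each library (100% of values above 0, within 0.02 reads), taken as 1 read. At a length of 1 kb, 14.9 to 18.5 reads make 1 FPKM. Intervals on reads cover counting error only.

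Log2(FPKM + 1) was compared with limma 3.58.1 (R 4.3.3, trend and robust moderation, two-sided). The 11856 genes that reached 0.5 FPKM in 3 or more libraries were tested, with Benjamini-Hochberg adjustment at 0.05. Members below that filter were fitted without it. The fit was run on simulated reads with the same spread setting for every gene. That run does not measure power or error rate in these libraries. Replicate numbers did not pair the libraries. Exon overlaps came from GENCODE M21, and blastn 2.17.0 found 0 copies of at least 97% identity over 80% of a member's transcript. Promoters are RefSeq's. Members, pathway genes and markers were chosen with earlier results of these data known. Named were all members, G3bp1, pathway genes set by identity, and the closest 2 genes by profile, of which 1 is not reported here. 13 alternatives were tried, and 1 was added after seeing the data.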

Additional observations from a re-analysis of the deposited data

How the results depend on the processing

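None of the 7 members above the filter passed the adjusted threshold under any of the 13 alternatives, the lowest adjusted p in limma being 0.256 (Casp1). Tlr4, Nlrp3 and Pycard have an adjusted p only without the filter, and under 10 alternatives a value, since quantile normalization, voom and the replicate block give none. Tlr2, Tlr3, Tlr4, Cd14, Nlrp3 and Casp1 kept their sign in all of theirs. Leaving out 1 library gave log2 fold changes of 0.16 to 0.51 for Tlr2, -0.58 to -0.16 for Tlr3, 0.32 to 0.58 for Cd14 and 0.27 to 0.51 for Casp1. Members with no overlap on the higher side numbered 2, then 3 under TPM and 3 scaled by assigned reads, where Cd14 joined. With 1 library left out they numbered 2 to 4. Tlr2 and Nlrp3 joined without Flox 3, Tlr2 and Cd14 without HKO 2, Cd14 without Flox 2 and Il1b without HKO 1. On the lower side there was 1, then 0 under TPM and 0 scaled by assigned reads, and 1 to 2 with 1 library left out (Il18 joined without Flox 2, Pycard without HKO 1). Groups with 1 library fewer separate more easily, and the share over all genes was not counted under these alternatives. Over all genes the count lower was 1, then 0 without a filter, 3 with voom, 0 with the replicate block, and 0 to 12 with 1 library left out (12 without HKO 1). The count higher was 0, and 0 to 1 with 1 library left out (1 without HKO 1).

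TPM moved the median log2 fold change of all genes tested to 0.147, and scaling by assigned reads moved it to 0.051. Signs turned for values near 0. Under TPM these were Myd88 (0.13), Il18 (0.15), Irak4 (0.018) and Nfkbia (0.13), and scaled by assigned reads Myd88 (0.035), Il18 (0.053) and Nfkbia (0.028). Below the filter, Tlr6 turned under TPM (0.028) and scaled by assigned reads (0.0016), and Tlr9 under TPM (0.0084) and at a pseudocount of 0.1 (0.11). Il18 was 0.029 under quantile normalization, and Il1b was -0.027 at a pseudocount of 0.1 and -0.040 with voom. With 1 library left out the ranges were -0.21 to 0.33 for Il1b, -0.22 to 0.12 for Il18, -0.077 to 0.025 for Myd88, -0.093 to 0.020 for Pycard, -0.11 to 0.28 for Il1a, -0.018 to 0.21 for Traf6, -0.089 to 0.26 for Naip2, -0.0070 to 0.34 for Cd180, -0.090 to 0.33 for Lbp, -0.0094 to 0.11 for Nek7 and -0.21 to 0.065 for Nfkbia. Tlr6, Tlr9, Naip5, Aim2 and Il6 also turned with 1 library left out, within -0.046 to 0.026, -0.071 to 0.10, -0.021 to 0.12, -0.090 to 0.11 and -0.014 to 0.026. The causes were not tested. Same-numbered libraries deviated together at r = 0.015 to 0.070 across genes, so the numbers were not taken as pairs. Genes under about 0.5 FPKM rest on few reads, which limits what can be detected for Tlr4, Nlrp3 and Pycard.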

Other observations

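Each member was also set against the summed Kupffer cell markers of the same library, a ratio added after the data were seen. The marker sum averaged higher in HKO, so the division lowers every member in HKO relative to Flox, and the ratios are no test of the share of Kupffer cells. Per 1000 FPKM of marker sum, Tlr4 stood at 1.01, 0.490 and 0.887 FPKM in Flox 1, 2 and 3 and at 0.768, 1.76 and 1.97 in HKO 1, 2 and 3, so the groups overlapped. Casp1 stood at 5.47, 3.89 and 4.87 in Flox and 3.77, 7.40 and 5.004 in HKO on the same scale, also with overlap. Cd14 averaged 9.27 in Flox and 9.17 in HKO, and Tlr2 averaged 4.04 in Flox and 4.42 in HKO, both with overlap. Nlrp3, Pycard, Il1b and Il18 overlapped as well. Tlr3 stood at 10.02, 8.06 and 11.9 in Flox and 2.84, 5.37 and 4.68 in HKO, with every HKO library below every Flox library, as in plain FPKM. Myd88, which overlapped in plain FPKM, stood at 43.7, 36.1 and 26.2 and 18.9, 26.1 and 23.8, a separation that comes with the divisor. The exact permutation p, not adjusted over the 10 members, was 0.1 for Tlr3 and Myd88, the smallest the design allows, and 0.3 for Tlr4 and 0.8 for Casp1. For Cd14 it was 0.9 and for Tlr2 0.8.

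Spread between libraries differed among the members. Set beside what counting alone gives, the coefficient of variation of Tlr2 in Flox was 52% against 15.7% and that of Tlr3 in Flox was 51.6% against 7.61%. For Casp1 in HKO it was 10.9% against 15.9%, and for Pycard in Flox 5.75% against 22.7%. These 4 were picked after their values were seen, and no test of the spread was made.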
